A study of Mus musculus with 6 samples.

Results

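miR-383 is a microRNA (miRNA, a short RNA that guides repression of messenger RNAs) made from a single mouse hairpin, and the deposited table lists both of its arms, mmu-miR-383-5p and mmu-miR-383-3p, as 2 of 1542 mature sequences. The 2 entries were taken by name. miR-383 was chosen by its counts in these same libraries, in which the 5p arm was nearly absent from MRL/lpr kidneys, so its levels and fold changes are given here as a description, with no p-value. Small RNA libraries were made from the kidneys of female mice aged 17 weeks, with 3 libraries from C57BL/6 mice, the controls, and 3 from MRL/lpr mice (genotype MRL/MpJ-Fas<lpr>/J in the labels). The lpr mutation disrupts Fas, which encodes a death receptor of lymphocytes, and mice of this strain develop a spontaneous lupus-like disease with nephritis. The strains therefore differ in genetic background, in the lpr mutation and in disease, and these cannot be told apart here. Whether each library came from its own mouse is not stated in the labels, so the spread between libraries, which the p-values measure, may be technical.

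A miRNA hairpin is cut out of a longer transcript in the nucleus and trimmed in the cytoplasm, and one of its arms is usually kept as the working strand. The seed, bases 2 to 8 of that strand, pairs with target messenger RNAs. When a hairpin lies in an intron, its host transcript is often also its source, although some intronic hairpins have transcripts of their own. miR-383 is best known from the gonads, where it has been studied in germ cells of the testis and in granulosa cells of the mouse ovary, and its host gene, Sgcz, encodes zeta-sarcoglycan, a membrane protein of the sarcoglycan complex of muscle.

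The hairpin lies on chromosome 8 of the GRCm38 assembly, from 38252133 to 38252202 on the minus strand (GENCODE M21, 70 bases). It lies within Sgcz, which runs from 37522298 to 38661508 on the same strand and is 1.14 Mb long. In both annotated transcripts that span the hairpin, it falls in the first intron, a stretch of 708 kb. The first exon ends 409 kb upstream of it and the second exon begins 299 kb downstream. No other annotated miRNA hairpin lies inside Sgcz. The messenger RNA of Sgcz was not measured in these small RNA libraries.

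**Figure D1:**
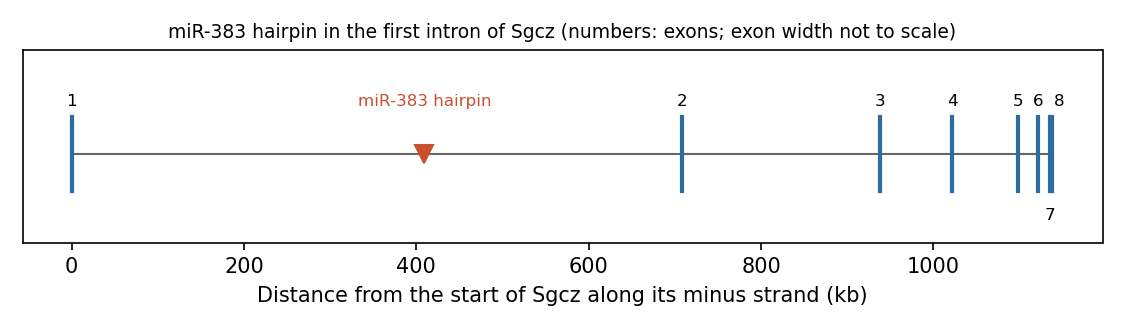
Position of the miR-383 hairpin (orange triangle) in Sgcz, drawn as distance in kb from the start of the gene along its minus strand, with the exons of the protein-coding transcript Sgcz-201 as blue bars. The hairpin sits in the first intron, 409 kb past the first exon and 299 kb before the second.

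Mature sequences are printed for the miRNAs whose levels followed those of miR-383-5p most closely and for the abundant miRNA that ran most opposite to it, so that their seeds can be compared with each other. They come from RefSeq (GRCm38.p6), which held 11 of the 15 names looked up, are written 5′ to 3′, and have the seed in capitals.
miR-195a-3p, chr11:70235100-70235121, plus strand: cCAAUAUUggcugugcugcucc
miR-676-3p, chrX:100381151-100381171, plus strand: cCGUCCUGagguuguugagcu
miR-337-5p, chr12:109585818-109585839, plus strand: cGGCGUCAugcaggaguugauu
miR-31-5p, chr4:88910614-88910635, minus strand: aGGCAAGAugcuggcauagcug
miR-204-5p, chr19:22750610-22750631, plus strand: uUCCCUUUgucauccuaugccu
The names not matched were mmu-miR-383-5p, mmu-miR-383-3p, miR-375-3p and miR-466g, so no seed was compared with that of miR-383. The 11 sequences found have 11 distinct seeds.

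miR-383-5p was a moderately abundant miRNA in every C57BL/6 library and was low, at 17 counts or fewer, in every MRL/lpr library. Its counts were 249, 634 and 485 in C57BL/6 replicates 1, 2 and 3, and 17, 5 and 4 in MRL/lpr replicates 1, 2 and 3. As CPM, a count divided by the library's total and brought to a common scale with TMM factors for library composition, these were 50.9, 102 and 75.6 CPM in C57BL/6 and 2.40, 0.970 and 0.662 CPM in MRL/lpr. The groups did not overlap, and the lowest C57BL/6 library was 21.2-fold above the highest MRL/lpr library. The strain means were 76.1 ± 25.5 CPM for C57BL/6 and 1.34 ± 0.927 CPM for MRL/lpr (SD, n = 3), and the fitted log2 fold change was -5.76 ± 0.48 (SE, MRL/lpr over C57BL/6), or 54.2-fold lower. Of the 1394 counts of miR-383-5p in all libraries, 1.87% came from MRL/lpr. In kidney tissue, fewer cells that make the miRNA and less of it per cell cannot be told apart.

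By rank of counts within a library, miR-383-5p moved from the upper part of the detected sequences to the middle. It ranked 186 of 877, 154 of 954 and 159 of 914 detected sequences in the C57BL/6 libraries. In the MRL/lpr libraries it ranked 399 of 936, 499 of 878 and 531 of 903.

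Counting error is small for C57BL/6 and large for MRL/lpr. The exact 95% Poisson intervals, which cover counting error only, were 44.8 to 57.7, 94.1 to 110 and 69.0 to 82.6 CPM in C57BL/6. These intervals are apart from each other, so the C57BL/6 libraries differed by more than counting error, with a 2.00-fold ratio of the highest to the lowest. In MRL/lpr the intervals were 1.40 to 3.84, 0.315 to 2.26 and 0.180 to 1.70 CPM, and each overlaps the others. MRL/lpr replicate 1 held 65.4% of the 26 MRL/lpr counts. Without it the MRL/lpr mean was 0.816 ± 0.218 CPM (SD, n = 2) and the fitted log2 fold change was -6.50.

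**Figure D2:**
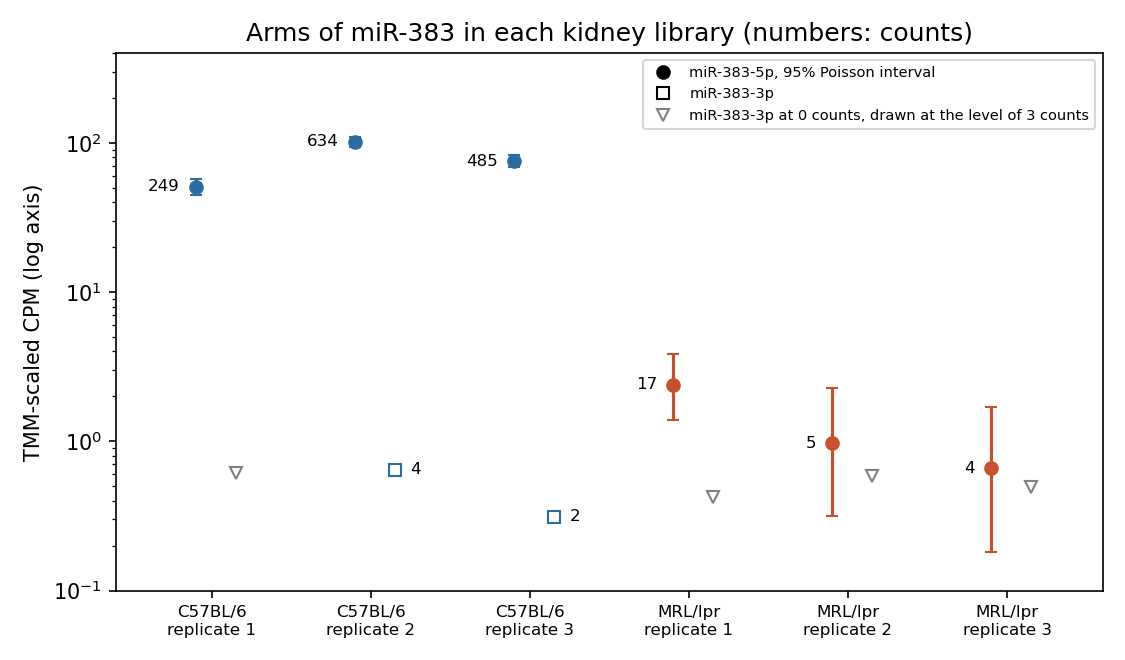
Level of miR-383-5p (filled circles, with 95% Poisson intervals) and miR-383-3p (open squares) in each library, in TMM-scaled CPM on a log axis, with the raw counts as numbers. The C57BL/6 libraries (blue) lie between 50.9 and 102 CPM and the MRL/lpr libraries (orange) between 0.662 and 2.40 CPM. Grey triangles mark libraries with 0 counts of miR-383-3p, drawn at the level that 3 counts would give.

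C57BL/6 replicate 2 had the highest level of miR-383-5p and was also the highest in leukocyte miRNAs. The summed level of 7 leukocyte miRNAs was 28916 CPM in it and 6225 and 6053 CPM in C57BL/6 replicates 1 and 3. Most of each sum was miR-146a-5p, with 159196 counts in replicate 2 and 24494 and 30588 in replicates 1 and 3. The part of leukocyte miRNAs in the level of miR-383-5p was not tested. Without C57BL/6 replicate 2 the C57BL/6 mean of miR-383-5p was 63.3 ± 17.4 CPM (SD, n = 2). The fitted log2 fold change was then -5.47, against -5.76 with all libraries.

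The minor arm, miR-383-3p, was barely detected. It had 0, 4 and 2 counts in the C57BL/6 libraries and 0 counts in each MRL/lpr library, and it did not pass the filter on low counts. A count of 0 allows up to 3 counts, which is 0.614 CPM in C57BL/6 replicate 1 and 0.424, 0.582 and 0.497 CPM in MRL/lpr replicates 1, 2 and 3. The 6 counts in C57BL/6 amount to 0.342 CPM over the group (exact Poisson interval 0.126 to 0.745), and the upper bound of the interval for MRL/lpr is 0.202 CPM. These intervals overlap, and a difference in this arm was not tested.

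Nearly all reads of the hairpin came from its 5p arm. In C57BL/6, 1368 of 1374 counts were 5p, a share of 99.6% (exact binomial interval 99.1% to 99.8%, counting error only). In MRL/lpr all 26 counts were 5p, with an interval from 86.8% to 100%. At the C57BL/6 share, 0.114 counts of the 3p arm would go with the 26 counts in MRL/lpr, so the libraries hold too few reads to compare arm use between strains. Among 180 names with both arms in the table and at least 100 counts in C57BL/6, the median share of the major arm was 98.7%, and 64 (35.6%) had a larger share on one arm than miR-383.

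The size of the difference was unusual in this table, while a separation of the strains as such was not. The groups did not overlap for 130 of the 451 sequences tested (28.8%), and the test called 28 of them (6.21%; quasi-likelihood test of edgeR, p under 0.05 after Benjamini-Hochberg adjustment), of which 9 were lower in MRL/lpr (2.00%) and 19 were higher (4.21%). Scaling by library size alone moved the median log2 fold change of all sequences tested by 0.15, and the split was then 6 lower and 24 higher. miR-383-5p belongs to both sets, as the way it was chosen implies. In 3 sequences (0.665%), all lower in MRL/lpr, the lowest library of one strain was at least 5 times the highest of the other, but for 2 of them only because MRL/lpr had 0 counts. Those were predicted sequences of the authors, without a name in miRBase. One had 13, 25 and 44 counts in C57BL/6, the other had 18, 14 and 29, and both had 0 counts in each MRL/lpr library. Their fitted log2 fold changes were -7.77 and -7.39. By absolute fitted fold change, miR-383-5p therefore ranked 3 among the 451 sequences tested. Set against the level of 3 counts in an MRL/lpr library, the lowest C57BL/6 values of the 2 predicted sequences are at least 4.57-fold and 3.86-fold higher. By this bound on single libraries only miR-383-5p, which was chosen for its strain difference, was past 5-fold. Over the 3 MRL/lpr libraries pooled, 3 counts are 0.164 CPM, far below the C57BL/6 means of the 2 predicted sequences (4.51 and 3.48 CPM).

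Just outside the 5-fold limit lay miR-3073b-3p (4.25-fold) and miR-129-2-3p (3.92-fold), which were both higher in MRL/lpr. Their counts are uncertain, since the miR-3073b hairpin lies antisense to another and miR-129-2-3p is nearly identical to an arm of a further miR-129 hairpin. Among the 64 other sequences that were lower in MRL/lpr without overlap and still had counts there, the ratio between the nearest libraries reached 1.93-fold at most, with a median of 1.12-fold. The fitted log2 fold change of miR-199b-3p (-5.70) was close to that of miR-383-5p, but its counts were very uneven. It had 184, 228 and 15070 counts in C57BL/6 and 204, 86 and 6 in MRL/lpr. As CPM its nearest libraries were only 1.27-fold apart, and it did not pass the test (edgeR adjusted p = 0.308). It shares its sequence with miR-199a-3p, so its own count is uncertain.

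**Figure D3:**
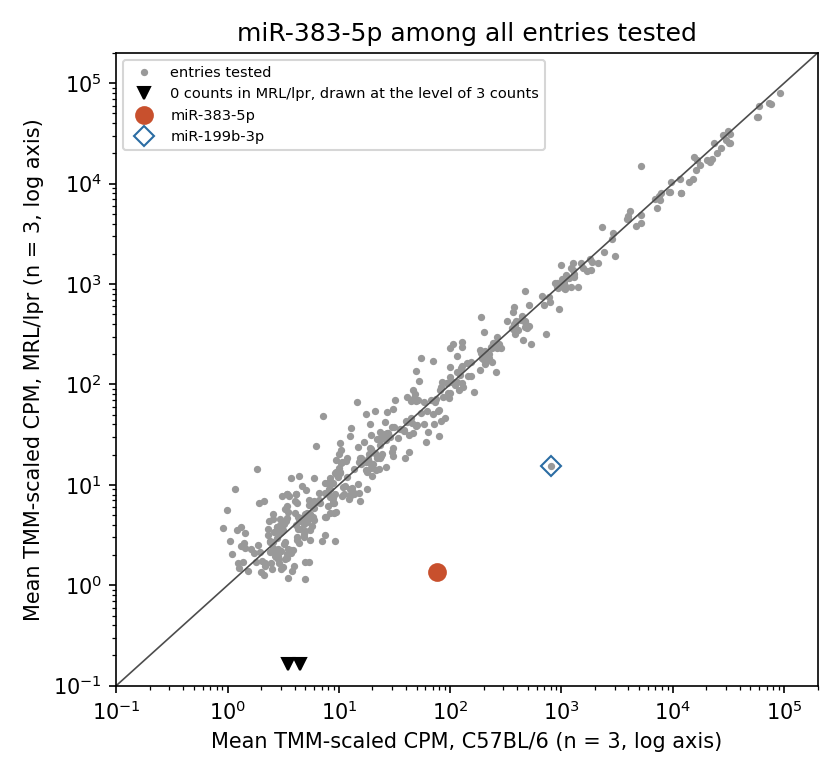
Mean TMM-scaled CPM of the 451 sequences tested in C57BL/6 (x axis) and MRL/lpr (y axis), both on log axes, with the line of equal levels. miR-383-5p (orange, 76.1 and 1.34 CPM) lies far below the line, as does miR-199b-3p (blue diamond), whose C57BL/6 mean comes mostly from 1 library. The 2 predicted sequences with 0 counts in MRL/lpr (black triangles) are drawn at the level of 3 counts.

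No sequence as abundant as miR-383-5p in C57BL/6 came near its level in MRL/lpr. Of 68 tested sequences within 2-fold of its C57BL/6 mean, 3 rose (beside 4.21% of all sequences tested) and 4 fell (beside 2.00%) in MRL/lpr. Log2 fold changes of the 68 lay between -1.39 (miR-379-5p) and 1.75, with a median of 0.019 (0.18 with library size alone, -0.010 with upper-quartile scaling and -0.058 without MRL/lpr replicate 2), beside a median of -0.027 over all sequences tested. Their lowest MRL/lpr mean was 18.4 CPM and their median was 74.8 CPM. Within C57BL/6, miR-383-5p varied more than most of them, with a coefficient of variation of 33.4% against a median of 18.2%, and 52 of the 68 varied less.

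The miRNAs with the most similar profile were miR-195a-3p, miR-375-3p, miR-676-3p, miR-337-5p and miR-31-5p. Likeness was the Pearson correlation of log2(CPM + 1) with miR-383-5p over the 6 libraries, among 411 other tested miRNAs with miRBase names, whose median r was -0.052. Since the libraries form 2 strains, this measure mostly ranks how cleanly a miRNA separates them, and it favours miRNAs that differ between the strains. The r values were 0.98 for miR-195a-3p and miR-375-3p, 0.97 for miR-676-3p and 0.95 for miR-337-5p and miR-31-5p. All 5 were lower in every MRL/lpr library than in any C57BL/6 library, as were 14.9% of all sequences tested. None of the 5 came near the size of the miR-383-5p difference.

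miR-195a-3p, the minor arm of a hairpin of the miR-15 and miR-16 family, had 12.3, 14.6 and 14.3 CPM in C57BL/6 and 8.75, 8.54 and 7.28 CPM in MRL/lpr. Its log2 fold change was -0.75 ± 0.28 (SE, edgeR adjusted p = 0.153), so it did not pass the test. miR-375-3p, a miRNA of secretory epithelial and neuroendocrine cells, had 639, 737 and 804 CPM in C57BL/6 and 314, 357 and 282 CPM in MRL/lpr. It fell by 1.19 ± 0.20 on the log2 scale (SE, edgeR adjusted p = 0.00793).

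miR-676-3p fell by 0.97 ± 0.23 on the log2 scale (edgeR adjusted p = 0.0376), from 90.8 ± 14.4 to 46.2 ± 6.35 CPM (SD, n = 3). miR-31-5p fell by 0.92 ± 0.23 (edgeR adjusted p = 0.0451), from 82.2 ± 12.7 to 43.5 ± 5.78 CPM. miR-337-5p, from the imprinted Dlk1-Dio3 cluster, had 4.94 ± 1.47 and 1.69 ± 0.612 CPM in the strains in the same order and did not pass (log2 fold change -1.52 ± 0.43, edgeR adjusted p = 0.0662). The calls of miR-676-3p and miR-31-5p were lost in 6 and 9 of 14 alternative settings, and that of miR-375-3p was lost in 1, without MRL/lpr replicate 3 (adjusted p = 0.0654).

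The most opposite profiles were those of miR-204-5p (r = -0.99), miR-466g (r = -0.97) and miR-708-5p (r = -0.97). miR-204-5p, an abundant epithelial miRNA, had 5836, 4277 and 5472 CPM in C57BL/6 and 12868, 17048 and 14920 CPM in MRL/lpr. It rose by 1.52 ± 0.18 on the log2 scale (edgeR adjusted p = 0.00141). miR-708-5p rose by 1.13 ± 0.23 (edgeR adjusted p = 0.0197), from 32.2 ± 5.74 to 70.7 ± 5.24 CPM, and its call was lost in 5 of 14 alternative settings. miR-466g, at 1.09 ± 0.132 and 2.06 ± 0.328 CPM, did not pass (edgeR adjusted p = 0.237), and its count is uncertain because copies of the miR-466 family are nearly identical.

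**Figure D4:**
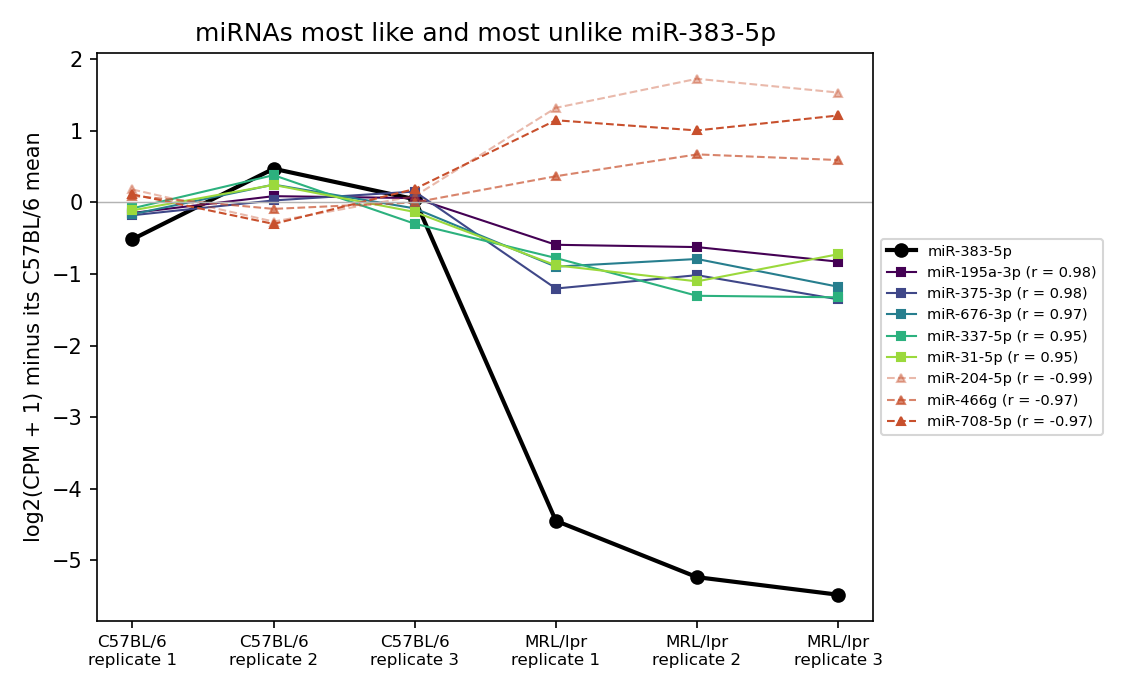
Profiles over the 6 libraries of miR-383-5p (black), of the 5 miRNAs most like it (solid lines, squares) and of the 3 most unlike it (dashed orange lines, triangles), as log2(CPM + 1) minus the mean of the C57BL/6 libraries, with Pearson's r in the legend. The like profiles separate the strains in the same direction, but miR-383-5p drops far further.

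Within strains, after each miRNA's strain mean was taken away, the profiles most like miR-383-5p were those of miR-205-5p (r = 0.94), miR-146b-5p (0.94), miR-31-3p (0.89), miR-186-5p (0.89) and let-7i-5p (0.88), over 6 libraries. These 5 were highest in C57BL/6 replicate 2 among the C57BL/6 libraries and highest in MRL/lpr replicate 1 among the MRL/lpr libraries, the same 2 libraries in which miR-383-5p was highest. None passed the strain test (edgeR adjusted p from 0.0731 to 0.714). miR-31-3p, with 42.7 ± 14.5 CPM for C57BL/6 and 21.1 ± 4.50 CPM for MRL/lpr, comes from the same hairpin as miR-31-5p in the list above, and miR-146b-5p, an inflammation-induced miRNA, had 99.5 ± 19.1 and 151 ± 28.6 CPM (SD, n = 3). Without C57BL/6 replicate 2, 3 of the 5 most like over all libraries and 1 of the 5 most like within strains kept their place.

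No other miRNA of chromosome 8 differed between the strains by nearly as much. Of 13 tested miRNAs whose annotated hairpins all lie on chromosome 8, miR-383 aside, none passed (edgeR, 0 of 13; 2 had an unadjusted p under 0.05, and DESeq2 and limma-voom called 0), beside 6.21% over all sequences tested. Their log2 fold changes ran from -1.06 to 0.82, with a median of -0.029 (0.12 with library size alone, -0.16 without C57BL/6 replicate 1 and 0.032 without MRL/lpr replicate 3), and 6 were above 0. None lies close to miR-383. The nearest annotated hairpin, Mir7666, lies 2.06 Mb away, and its mature sequence had 2 counts in C57BL/6 and 0 in MRL/lpr. The next with an entry in the table, Mir6395, 4.09 Mb away, had 8 and 3 counts.

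The nearest hairpin with a tested arm was that of miR-1968-5p, 25.1 Mb from miR-383, with means of 8.84 ± 3.49 CPM (C57BL/6) and 7.38 ± 1.50 CPM (MRL/lpr; edgeR adjusted p = 0.731). miR-1199-5p, 45.8 Mb away, had 2.55 ± 0.521 and 4.54 ± 1.31 CPM (edgeR adjusted p = 0.257). The hairpins of miR-181d and miR-181c, a pair of the miR-181 family, lie 45.9 Mb away. miR-181d-5p had 212 ± 62.9 and 174 ± 18.7 CPM (edgeR adjusted p = 0.564), and miR-181c-5p had 1813 ± 317 and 1778 ± 177 CPM (edgeR adjusted p = 0.948). The minor arm miR-181c-3p had 4.92 ± 1.15 and 5.12 ± 0.239 CPM (SD, n = 3; edgeR adjusted p = 0.950).

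miR-328-3p had the lowest log2 fold change of the 13 (-1.06). Its hairpin lies 67.1 Mb from that of miR-383, and it had 529 ± 277 CPM (C57BL/6) and 254 ± 96.5 CPM (MRL/lpr; edgeR adjusted p = 0.215). It was called without C57BL/6 replicate 2 (log2 fold change -1.36, adjusted p = 0.0341). Without a filter on low counts it was called too, with miR-23a-3p (adjusted p = 0.00376 and 0.0372).

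In summed level, no list of markers of the tissues in which miR-383 or its host gene is known was lower in every MRL/lpr library than in every C57BL/6 library. A part of such tissues in the level of miR-383-5p was not tested. Of 22 miRNAs of ovary and testis, 20 were in the table and 5 were tested, and none passed (edgeR, 0 of 5; 1 had an unadjusted p under 0.05, and DESeq2 and limma-voom called 0), beside 6.21% over all sequences tested. The median log2 fold change of the 5 was -0.017 (0.14 with library size alone, 0.0094 with RLE scaling, -0.16 without MRL/lpr replicate 1 and 0.11 without C57BL/6 replicate 2), and the summed level of the 20 was 85.1 to 108 CPM in C57BL/6 and 99.5 to 133 CPM in MRL/lpr. miR-202, the gonad marker of the list, was at or near 0: its 5p arm had 2 counts in MRL/lpr replicate 1 and its 3p arm had 2 in C57BL/6 replicate 3, and every other library had 0 of each. The summed level comes mostly from miR-34b-3p (38.4 ± 5.46 and 34.8 ± 3.68 CPM, edgeR adjusted p = 0.745) and miR-449a-5p (30.9 ± 10.4 and 56.4 ± 14.6 CPM, edgeR adjusted p = 0.132), which ciliated epithelia express as well. Without C57BL/6 replicate 2, miR-449a-5p was called as higher (log2 fold change 1.19, adjusted p = 0.0124).

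Of 7 muscle miRNAs, 4 were tested and none passed (edgeR, 0 of 4; 0 had an unadjusted p under 0.05, and DESeq2 and limma-voom called 0), beside 6.21% over all sequences tested. Their median log2 fold change was -0.078 (0.062 with library size alone, -0.32 without MRL/lpr replicate 2 and 0.19 without MRL/lpr replicate 1). The summed level of the 7 was 191 to 254 CPM in C57BL/6 and 144 to 201 CPM in MRL/lpr, so the groups overlapped. MRL/lpr replicates 1 and 3 (144 and 166 CPM) lay below every C57BL/6 library, and replicate 2 (201 CPM) did not. miR-1a-3p, the main miRNA of heart and skeletal muscle, had 187 ± 33.9 and 140 ± 23.1 CPM (edgeR adjusted p = 0.309), and miR-499-5p, which lies in an intron of a myosin gene, had 19.4 ± 7.73 and 22.9 ± 4.75 CPM (edgeR adjusted p = 0.718).

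Of 14 neural miRNAs, 11 were tested and 1 rose, beside 4.21% higher over all sequences tested, with a median log2 fold change of 0.078 (-0.0013 without C57BL/6 replicate 2 and -0.035 without MRL/lpr replicate 2). That one was miR-129-2-3p, which rose from 1.18 ± 0.783 to 9.13 ± 1.18 CPM (edgeR adjusted p = 0.00793), which missed the threshold without MRL/lpr replicate 3 (adjusted p = 0.0643). The summed level was 1113 to 1194 CPM in C57BL/6 and 1187 to 1393 CPM in MRL/lpr. miR-124-3p, the neuronal marker, was low in both strains, at 6.03 ± 3.50 and 6.93 ± 2.49 CPM (SD, n = 3).

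The labelled tissue was checked with kidney epithelium miRNAs, of which 10 of 11 were tested. Their summed level was 104312 to 149033 CPM in C57BL/6 and 134723 to 149862 CPM in MRL/lpr, with miR-192-5p, a tubular miRNA, among the most abundant at 28243 ± 9843 and 30421 ± 2972 CPM. The members that rose were miR-802-5p and miR-204-5p, and no member fell, beside 4.21% higher and 2.00% lower over all sequences tested, with a median log2 fold change of 0.11 (-0.088 without C57BL/6 replicate 2). miR-802-5p, a kidney and liver miRNA, had 55.2 ± 20.0 and 185 ± 14.5 CPM (edgeR adjusted p = 0.00793), and missed the threshold without MRL/lpr replicate 3 (adjusted p = 0.0643). Of 7 leukocyte miRNAs, all tested, miR-155-5p rose (70.1 ± 28.1 to 173 ± 27.5 CPM, edgeR adjusted p = 0.0331), which is 1 of 7 beside 4.21% higher over all sequences tested. Over the 7 the median log2 fold change came to 0.24. Leaving out C57BL/6 replicate 1 gave -0.014, and leaving out C57BL/6 replicate 2 gave 0.74. The call of miR-155-5p was lost in 5 of 14 alternative settings. The leukocyte sum comes mostly from miR-146a-5p (11784 ± 11944 and 8029 ± 620 CPM, edgeR adjusted p = 0.721). It was 9387 to 11083 CPM in MRL/lpr, inside the C57BL/6 range because of C57BL/6 replicate 2. Without that library 4 leukocyte miRNAs were called as higher, and with the replicate number as a block 0 were.

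**Figure D5:**
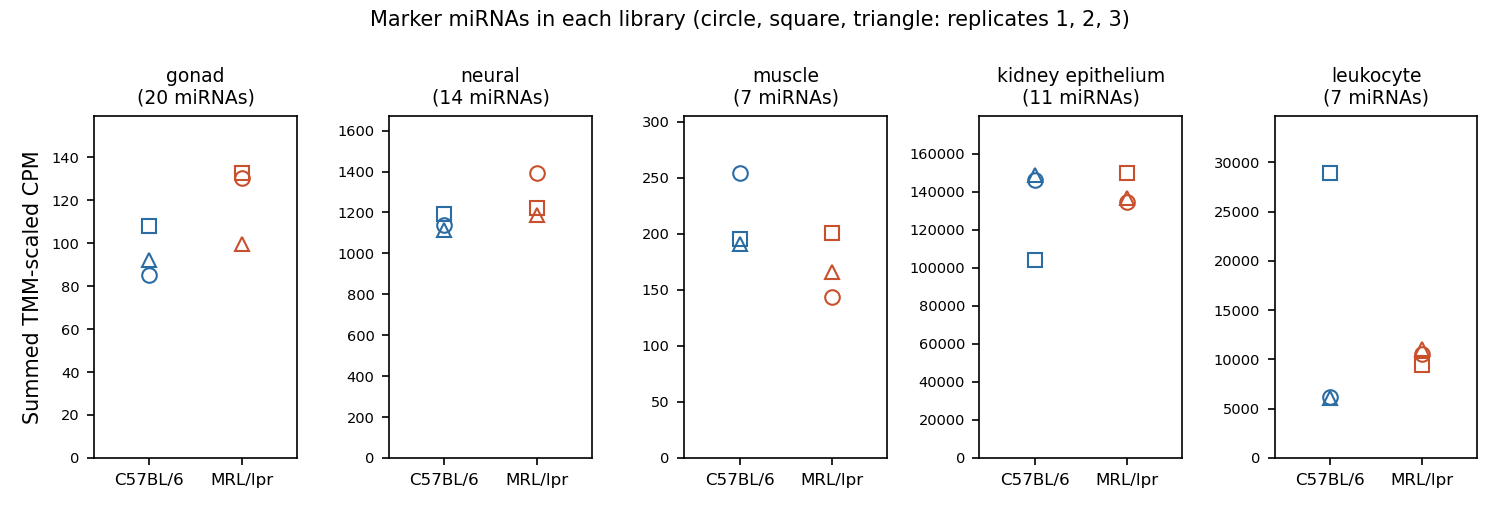
Summed TMM-scaled CPM of 5 lists of marker miRNAs in each library, with C57BL/6 in blue and MRL/lpr in orange and a symbol for each replicate number. In no list do all MRL/lpr libraries lie below all C57BL/6 libraries. C57BL/6 replicate 2 (blue square) stands apart in the leukocyte list at 28916 CPM, a sum that is mostly miR-146a-5p.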

How the data were processed

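Small RNA was sequenced from kidneys of C57BL/6 and MRL/lpr mice, in 3 adapter-ligated, size-selected libraries per strain, per the labels' protocols. The values are whole-number counts per mature sequence in 1 table deposited by the authors, with no normalization. Bowtie2, DESeq2 and GRCm38.p6 appear in the submitters' processing notes, with no role or version. The sources used here do not give the miRNA annotation, the handling of strand, of molecular identifiers or of reads with several matches. Each column was given its sample by the strain, age and number in its name. Library totals ran from 5259528 to 6773829 counts, so 5 counts are about 1 CPM.

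All 1542 entries (1190 with miRBase names, 352 predicted) entered the analysis in R 4.3.3. The 451 that passed filterByExpr (minimum count 10, minimum total 15) were scaled by TMM and fitted with the quasi-likelihood model of edgeR 4.0.16 for strain alone, with Benjamini-Hochberg adjustment over all 451 and a threshold of 0.05. Standard errors are the coefficient over the square root of F. The fit was tested on simulated data, where it called 52.8% of 2-fold changes, 94.2% of 4-fold changes and 1.61% of unchanged sequences. Alternatives used other scalings and filters, DESeq2 1.42.0, limma-voom (limma 3.58.1), the replicate number as a block, and each library left out. Hairpin positions come from GENCODE M21, matched by name for 388 of 411 tested miRNAs. Figures were drawn with matplotlib 3.10.9. Named miRNAs are miR-383, the 5 most and 3 least like profiles over all libraries, the 5 most like within strains, entries separated 5-fold, the called or else the 2 most abundant members of each list, and the called or else the 4 nearest hairpins of chromosome 8. Others (miR-199b-3p, miR-3073b-3p, miR-379-5p, miR-328-3p, miR-23a-3p, Mir7666, Mir6395, miR-202, miR-124-3p, miR-192-5p, miR-146a-5p, miR-465a-5p and miR-743a-3p) were named after their values were seen. The members and lists were chosen with earlier results of these data known.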

Additional observations from a re-analysis of the deposited data

How the results depend on the processing

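The log2 fold change of miR-383-5p kept its direction in all 14 alternatives. It ran from -5.86 (limma-voom) to -5.62 (library size alone) with all libraries, was -5.78 with the replicate number as a block, and ran from -6.50 to -5.41 with 1 library left out. The number of calls over all sequences moved more. Of 28 (19 higher, 9 lower) there were 64 without a filter on low counts (34 higher, 30 lower), 51 with DESeq2 (32 and 19) and 13 with the replicate block (8 and 5), and with 1 library left out 5 to 54 (2 to 42 higher, 3 to 15 lower). No link between same-numbered libraries is known beyond the number, and their deviations correlated at -0.37, 0.034 and -0.37. Whether they share a batch cannot be told from these values, since the 3 deviations within a strain are not independent. Without the filter, 1395 sequences were tested, 31 were separated 5-fold, and 1 gonad (miR-470-5p), 3 leukocyte and 2 chromosome 8 miRNAs were called. A minimum of 10 CPM in 3 libraries left 1 separated sequence and 0 neural calls, and a 3-fold limit gave 6 separated. DESeq2 called 3 leukocyte miRNAs and the replicate block 0. With 1 library left out, 4 to 8 were separated, 0 to 4 leukocyte, 0 to 1 gonad, 0 to 1 neural, 1 to 2 kidney epithelium and 0 to 1 chromosome 8 miRNAs were called. Of the 5 most like profiles within strains, 1 was kept with a pseudocount of 5. Without C57BL/6 replicate 2, 3 were kept over all libraries and 1 within strains. The arm share was 99.7% as a mean of libraries. Depth limits miR-383-3p and the MRL/lpr libraries, where miR-383-5p has 4 to 17 counts.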

Other observations

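Another set of miRNAs known from the testis was at trace levels, with more counts in total in the MRL/lpr libraries. Of the listed gonad miRNAs, 10 were matched by name to annotated hairpins on the X chromosome alone. Among them are miR-741-3p, miR-470-5p and miR-871-5p, which belong to an X-linked cluster known from male germ cells. The 10 are not all such miRNAs of the list, since miR-465a-5p and miR-743a-3p are not among them. miR-465a-5p had 0, 0 and 0 counts in C57BL/6 and 1, 0 and 2 in MRL/lpr, and miR-743a-3p had 0, 1 and 0 against 0, 0 and 0. These 10 were picked with their values known, and none of the 10 passed the filter on low counts. Together they had 3, 4 and 7 counts in the C57BL/6 libraries and 27, 20 and 31 counts in the MRL/lpr libraries. For miR-470-5p every C57BL/6 library was at 0 and the MRL/lpr libraries had 3, 5 and 7 counts, and miR-741-3p had 2, 3 and 2 against 10, 7 and 9. This did not hold for each member: miR-871-3p had 1, 0 and 3 counts in C57BL/6 and 2, 0 and 2 in MRL/lpr, and miR-743b-3p had 0, 1 and 0 against 1, 0 and 1. The difference in summed counts was not tested. Of the 10, 6 had 0 counts in C57BL/6 and so had all their counts in MRL/lpr, as must any detected sequence at 0 in C57BL/6. How many entries of the whole table show this pattern was not counted, so the 6 are not a result about the cluster. miR-470-5p was called when no filter was used (edgeR adjusted p = 0.0245). Counts this low have wide counting error, and the copies of this cluster are similar to each other, so the values of single members are uncertain.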
